A study of Mus musculus with 10 samples.

Results

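The 9 genes described here encode a chain from the heart's catecholamine receptors to the enzymes that break catecholamines down. They are the receptor genes Adrb1, Adra1a and Adra1b, the G protein gene Gnas, the adenylyl cyclase genes Adcy5 and Adcy6, the receptor kinase gene Grk5 and the monoamine oxidase genes Maoa and Maob. On GRCm38, Adrb1 lies on chromosome 19 from 56722199 to 56733113 and Grk5 on the same chromosome from 60889749 to 61095968, both on the plus strand. Adra1a lies on chromosome 14 from 66635251 to 66771168 (plus strand), Adra1b on chromosome 11 from 43774606 to 43901210 (minus strand), Adcy5 on chromosome 16 from 35154877 to 35305738 (plus strand) and Adcy6 on chromosome 15 from 98589973 to 98610076 (minus strand). All 9 were taken by name from a count table of 31655 genes, each symbol matched 1 Ensembl ID, and all 9 passed the filter on low counts. The data are 10 RNA sequencing libraries of mouse heart tissue, 5 from an LPS group and 5 from a group given baicalin and LPS. Every mouse was injected once in the abdomen with lipopolysaccharide (LPS) at 10 mg/kg, a bacterial outer-membrane component that sets off systemic inflammation. For the 14 preceding days one group was gavaged with baicalin, a flavonoid of Scutellaria roots, at 100 mg/kg, and the LPS group with water. Tissue was taken 72 hours after the injection. The design names 8 mice per group and a saline group, which was not analysed here, so no value below shows what LPS itself does. The sources used here do not give strain, sex or age.

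Noradrenaline from sympathetic nerves and adrenaline from the adrenal gland act on cardiomyocytes through beta-1 and alpha-1 receptors. The beta-1 receptor couples through the stimulatory G protein to adenylyl cyclases 5 and 6, which make cAMP and so drive protein kinase A. Alpha-1A and alpha-1B receptors couple through Gq proteins to phospholipase C. Receptor kinases such as GRK5 phosphorylate active receptors and dampen the response. Monoamine oxidases A and B sit on the outer mitochondrial membrane, deaminate monoamines and release hydrogen peroxide, which links them to the redox balance named in the study's title.

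The libraries held between 39.4 and 75.7 M counts, and the 9 genes had between 182 and 16528 counts in a library. The cardiomyocyte marker Myh6 had between 13769 and 31638 CPM (library counts per M, scaled by TMM) in all 10 libraries. LPS libraries 1, 2 and 3 were far below the other 7 in the acute-phase transcript Lcn2, with 6.41, 5.45 and 5.28 CPM against 135 to 1012 CPM. These 3 libraries were the highest 3 of the 10 in 9.55% of all genes tested and the lowest 3 in 9.61%. Baicalin plus LPS libraries 2 and 3 held transcripts of atrial muscle, with 132 and 27.7 CPM of Myl7 against 0.527 to 2.23 CPM in the other 8. The noradrenaline transporter Slc6a2, a marker of sympathetic neurons, was near 0, with 0 to 0.324 CPM. The 3 sympathetic neuron markers in the count table, Dbh among them, summed to 0.218 to 3.60 CPM. In bulk tissue, fewer cells of a type and less RNA per cell cannot be told apart.

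The start regions of 4 of the genes are shown because Adrb1 and Maoa had the smallest p values for higher levels with baicalin and because Adra1b and Grk5 both had their lowest levels in LPS libraries 1 and 3. Each is the 250 bases before the start of the gene in RefSeq on GRCm38.p6, 5′ to 3′ on the strand of the gene, with matches to GGGCGG on either strand in capitals.
Adrb1: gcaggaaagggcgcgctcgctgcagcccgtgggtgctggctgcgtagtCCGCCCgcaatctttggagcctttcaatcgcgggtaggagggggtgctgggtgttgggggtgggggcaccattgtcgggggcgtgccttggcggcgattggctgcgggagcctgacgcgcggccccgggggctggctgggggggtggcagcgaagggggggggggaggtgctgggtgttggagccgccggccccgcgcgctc
Adra1b: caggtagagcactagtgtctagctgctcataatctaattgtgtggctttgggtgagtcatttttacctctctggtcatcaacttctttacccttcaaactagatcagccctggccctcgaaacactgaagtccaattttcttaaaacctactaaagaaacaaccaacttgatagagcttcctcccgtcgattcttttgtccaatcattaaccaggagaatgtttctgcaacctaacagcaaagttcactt
Grk5: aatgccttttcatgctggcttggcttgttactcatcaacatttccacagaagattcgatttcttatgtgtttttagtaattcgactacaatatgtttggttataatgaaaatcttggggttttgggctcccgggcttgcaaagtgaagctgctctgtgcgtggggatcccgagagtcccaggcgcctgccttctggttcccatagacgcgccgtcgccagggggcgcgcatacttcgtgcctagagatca
Maoa: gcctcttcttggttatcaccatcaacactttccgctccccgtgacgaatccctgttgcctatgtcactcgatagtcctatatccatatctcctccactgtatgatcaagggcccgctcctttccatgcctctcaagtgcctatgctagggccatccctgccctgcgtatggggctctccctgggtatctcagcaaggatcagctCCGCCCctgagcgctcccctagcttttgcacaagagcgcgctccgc
They lie at chr19:56721867-56722116 on the plus strand (Adrb1), chr11:43901238-43901487 on the minus strand (Adra1b), chr19:60889499-60889748 on the plus strand (Grk5) and chrX:16619448-16619697 on the plus strand (Maoa). RefSeq windows were at hand for 6 of the 9 genes. GGGCGG, a box bound by SP1 and KLF factors, occurred once each before Adrb1 and Maoa and 4 times before Adcy5, and had no match before Adra1b or Grk5. Of 32851 windows of all genes, 32.7% held it. The cAMP response element TGACGTCA, held by 1.55% of all windows, had no match in any of these 5 windows on either strand. The Adra1b window had 41.6% G and C bases, the Grk5 window 49.6%, the Maoa window 56.8% and the Adrb1 window 74.0%, beside a median of 52.4% over all windows. No match says only that these letters are not in these windows.

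The comparison asks whether baicalin given before LPS was accompanied by other levels of these transcripts. None of the 9 genes differed at an adjusted p of 0.05 in edgeR, where 0 of all 16850 genes did so (0%). At an unadjusted p under 0.05, 1 of the 9 passed, Maoa, with a higher level with baicalin, beside 11.1% of all genes tested in either direction, 5.26% higher and 5.88% lower. With 1 library left out the number was 0 to 3 of the 9, and it was 0 without LPS library 2, LPS library 3, baicalin plus LPS library 2 or baicalin plus LPS library 3, and 3 without baicalin plus LPS library 5. Over all genes, these fits ranged from 1282 of 17106 tested (without LPS library 3) to 3112 of 17191 (without LPS library 4). Without baicalin plus LPS library 5, 2336 of 17259 genes passed. The groups overlapped in all 9 genes, and did not overlap in 2.46% of all genes, 0.878% higher and 1.58% lower with baicalin. Of the 9 fold changes 6 were positive and 3 negative (49.4% and 50.6% of all genes), with a median log2 fold change of 0.10, beside -0.00 over all genes. DESeq2 called 0 of the 9 (1.68% of all genes) and limma-voom 0 (0%), while limma-voom with sample quality weights called 5 of the 9, Adra1a, Adra1b, Adcy6, Grk5 and Maoa, in a fit that called 17.6% of all genes. No label ties a library to a single mouse, so the p-values measure only how these libraries vary, which may be technical.

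**Figure D1:**
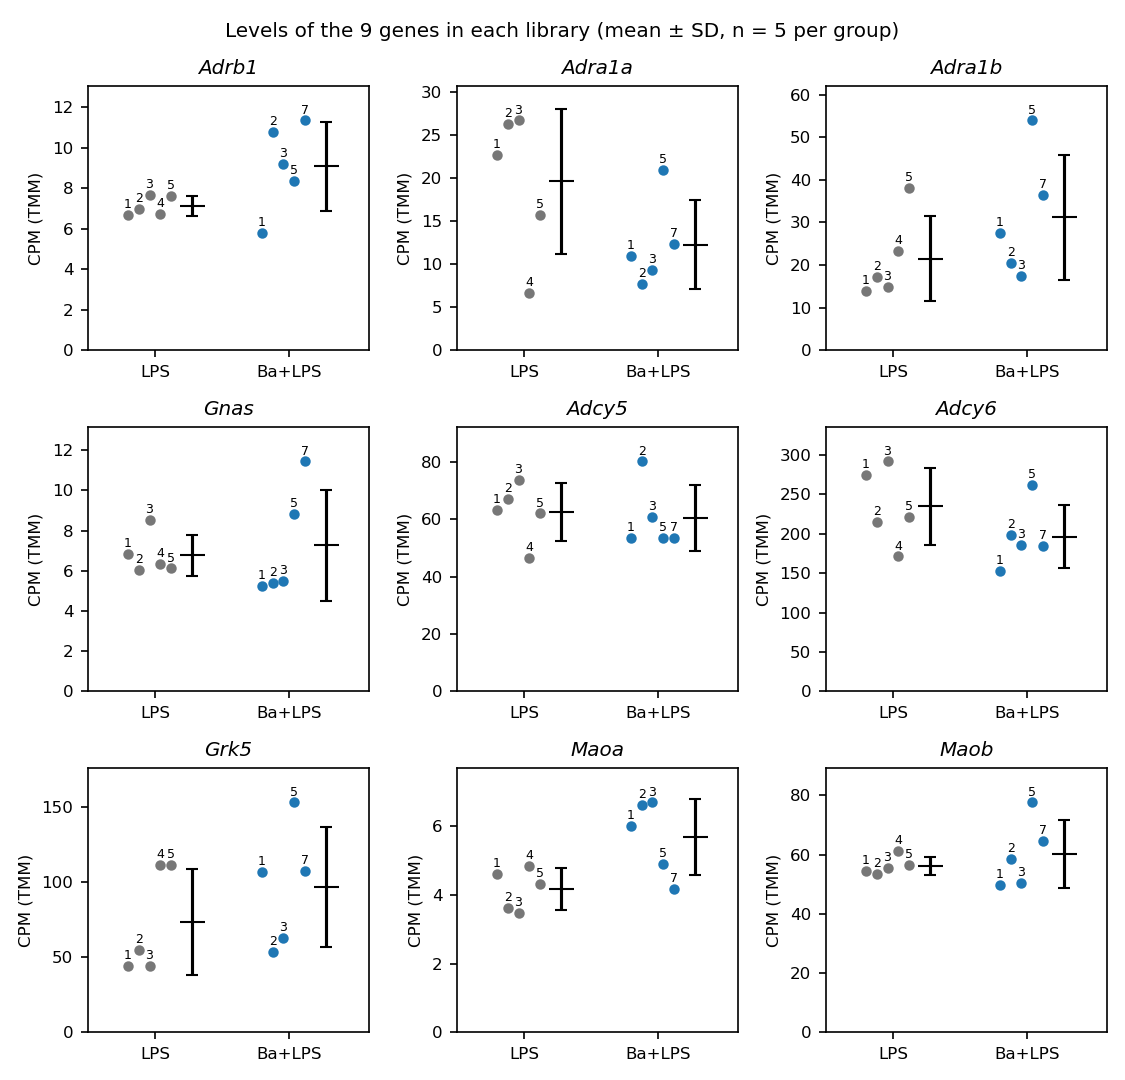
CPM of each of the 9 genes (vertical axes from 0) in the LPS and the baicalin plus LPS (Ba+LPS) libraries; points are libraries with their number, and the bar beside them is the mean ± SD of 5. The groups overlap in every panel, and LPS libraries 1, 2 and 3 are the highest 3 for Adra1a and the lowest 3 for Adra1b.

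Adrb1 encodes the beta-1 receptor, the main target of noradrenaline in cardiomyocytes. It had 6.67, 6.99, 7.67, 6.71 and 7.61 CPM in LPS libraries 1 to 5 and, in baicalin plus LPS libraries 1, 2, 3, 5 and 7, 5.78, 10.8, 9.19, 8.36 and 11.3 CPM. All 5 LPS libraries lay close together, 4 baicalin plus LPS libraries lay above them and library 1 lay below them. The means were 7.13 ± 0.484 and 9.09 ± 2.20 CPM (SD, n = 5 each), and the log2 fold change was 0.35 ± 0.17 (SE, adjusted p = 0.470 in edgeR). Without baicalin plus LPS library 1 the log2 fold change was 0.48 and the unadjusted p = 0.00377 in edgeR, with an adjusted p of 0.482. That library is the lowest for Adrb1, so this fit selects on the level tested. In it, 1556 of 17193 genes had an unadjusted p under 0.05. Over all fits with 1 library left out, the fold change ranged from 0.26 to 0.48. The edgeR adjusted p values ranged from 0.357 to 0.688. The libraries with atrial transcripts were 2 of the 4 high ones, and with both left out the log2 fold change was 0.25 ± 0.20 (adjusted p = 0.725 in edgeR).

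Adra1a encodes the alpha-1A receptor. It had 22.6, 26.3, 26.7, 6.71 and 15.7 CPM in LPS libraries 1 to 5 and, in baicalin plus LPS libraries 1, 2, 3, 5 and 7, 10.9, 7.75, 9.34, 20.9 and 12.3 CPM. LPS libraries 1, 2 and 3 were the highest of all 10, and LPS library 4 was the lowest. The means were 19.6 ± 8.44 and 12.3 ± 5.15 CPM (SD, n = 5 each), with a log2 fold change of -0.68 ± 0.37 (SE, adjusted p = 0.515 in edgeR). Without LPS libraries 1, 2 and 3 the sign turned, to 0.14 ± 0.42 (adjusted p = 0.904 in edgeR). The same 3 libraries had the highest sum of the 5 cardiomyocyte markers, 46408 to 54129 CPM against 26242 to 40746 CPM elsewhere. They were not the highest 3 for the single markers Tnnt2 and Ryr2. The part of cardiomyocyte content in the Adra1a levels was not tested.

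Adra1b encodes the alpha-1B receptor. It had 14.0, 17.3, 14.9, 23.2 and 38.0 CPM in LPS libraries 1 to 5 and, in baicalin plus LPS libraries 1, 2, 3, 5 and 7, 27.6, 20.4, 17.4, 53.9 and 36.5 CPM. The order was the reverse of Adra1a at that end, with LPS libraries 1, 2 and 3 the lowest of all 10. The means were 21.5 ± 9.93 and 31.2 ± 14.7 CPM (SD, n = 5 each), with a log2 fold change of 0.54 ± 0.35 (SE, adjusted p = 0.599 in edgeR). It was 0.03 ± 0.41 once LPS libraries 1, 2 and 3 were left out (adjusted p = 0.978 in edgeR). With the 2 atrial-transcript libraries left out instead, it was 0.87 ± 0.35 (adjusted p = 0.507 in edgeR).

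Set against each other within a library, the alpha-1 receptor transcripts gave a high ratio in 3 libraries and a low one in the other 7. The ratio of Adra1a to Adra1b in FPKM, which takes gene length into account, was 0.628, 0.588 and 0.694 in LPS libraries 1, 2 and 3. It was 0.112 and 0.160 in LPS libraries 4 and 5, and between 0.131 and 0.208 in the 5 baicalin plus LPS libraries. The groups overlapped, and the mean log2 ratio differed by -1.13 between them (two-sided exact permutation p = 0.135, 0.310 adjusted over 4 ratios, smallest possible p 0.00794). Without LPS libraries 1, 2 and 3 the difference was 0.22 (exact p = 0.429). Alpha-1B made up 41.9% to 75.3% of the summed FPKM of the 8 adrenergic receptor genes analysed here, the largest share in every library. That order rests on the authors' fixed lengths, 8728 bases for Adra1a and 3382 for Adra1b. In counts, Adra1a was above Adra1b in LPS libraries 1, 2 and 3 (1289 against 795, 1826 against 1203 and 1393 against 778). Alpha-1A made up 27.6% to 29.1% in LPS libraries 1, 2 and 3 and 7.51% to 11.3% in the other 7, and beta-1 11.7% to 28.6% in all 10.

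**Figure D2:**
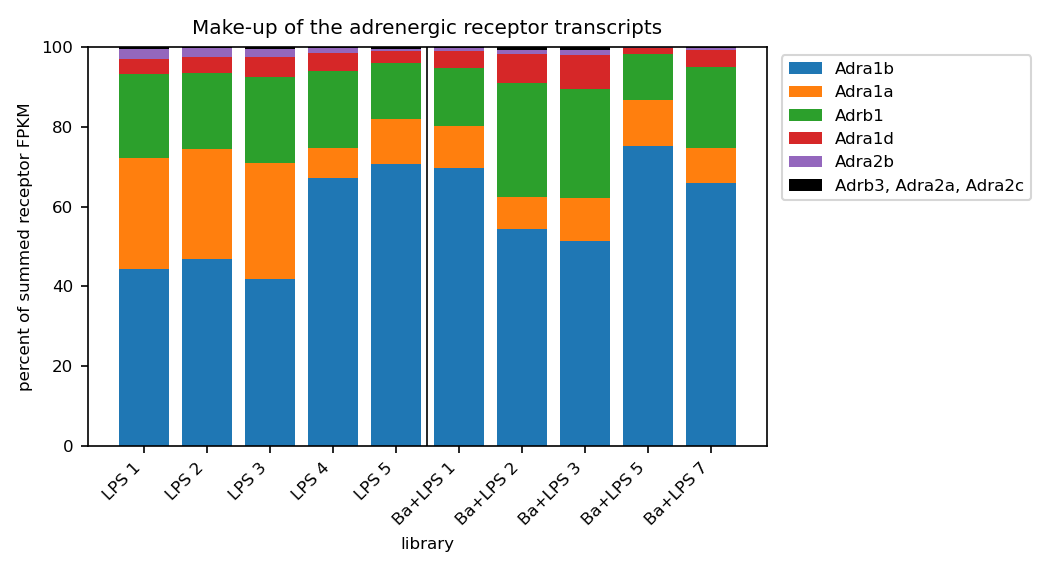
Percent of the summed FPKM of 8 adrenergic receptor genes (vertical axis) that each gene gives in each library (horizontal axis), stacked to 100; the line parts the LPS from the baicalin plus LPS libraries. The Adra1a segment is 27.6% to 29.1% in LPS libraries 1, 2 and 3 and 7.51% to 11.3% in the others.

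Of the 5 other receptor genes analysed here, Adra1d and Adra2b were tested and Adrb3, Adra2a and Adra2c were too low to test. Adra1d had 0.841 ± 0.107 and 1.20 ± 0.438 CPM in the LPS and baicalin plus LPS libraries (SD, n = 5 each), with a log2 fold change of 0.51 ± 0.28 (adjusted p = 0.527 in edgeR). Adra2b, an alpha-2 receptor that lowers cAMP through inhibitory G proteins, had 0.748 ± 0.278 and 0.361 ± 0.151 CPM (-1.03 ± 0.39, adjusted p = 0.363 in edgeR). Its level was highest in LPS libraries 1, 2 and 3, as for Adra1a, but at about 1 CPM or below in every library. The 3 untested genes stayed between 0 and 0.206 CPM.

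Gnas encodes the stimulatory G protein subunit that links the beta receptors to adenylyl cyclase. It had 6.83, 6.05, 8.52, 6.33 and 6.12 CPM in LPS libraries 1 to 5 and, in baicalin plus LPS libraries 1, 2, 3, 5 and 7, 5.23, 5.41, 5.48, 8.82 and 11.4 CPM. Baicalin plus LPS library 7 was the highest and the groups overlapped (6.77 ± 1.02 and 7.27 ± 2.77 CPM, SD, n = 5 each; log2 fold change 0.10 ± 0.23, adjusted p = 0.905 in edgeR). The sign turned without library 7, to -0.12. The Gnas count is uncertain for another reason. On GRCm38 Gnas lies on chromosome 2 from 174284320 to 174346744, and the annotated gene Gm20721 on the opposite strand covers between 0% and 85.4% of the exon bases of its annotated transcripts. The share was 0% for Gnas-204, Gnas-210 and Gnas-219 and highest for Gnas-208, and over all exon bases of Gnas 21.96% were shared with counted genes on the opposite strand. The sources used here do not say whether the authors counted by strand, so reads of the pair cannot be told apart, and Gm20721 itself had a mean of 3.5 counts per library. Gnas came to only 0.461 to 1.04 FPKM, the lowest of the 9 genes in every library but baicalin plus LPS library 7, where Maoa was level with it. The ratio of Adrb1 to Gnas FPKM was 3.59 ± 0.461 and 4.52 ± 1.57 (exact permutation p = 0.310), and it carries the same doubt.

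Adcy5 and Adcy6 encode the main adenylyl cyclases of cardiomyocytes. Adcy5 had 63.2, 67.0, 73.7, 46.5 and 62.0 CPM in LPS libraries 1 to 5 and, in baicalin plus LPS libraries 1, 2, 3, 5 and 7, 53.5, 80.1, 60.9, 53.6 and 53.5 CPM. The groups covered nearly the same range, with means of 62.5 ± 10.0 and 60.3 ± 11.5 CPM (SD, n = 5 each; log2 fold change -0.05 ± 0.15, adjusted p = 0.933 in edgeR). Adcy6 had 275, 215, 292, 171 and 221 CPM in LPS libraries 1 to 5 and, in baicalin plus LPS libraries 1, 2, 3, 5 and 7, 152, 198, 185, 262 and 184 CPM. Its 2 highest libraries were LPS 1 and 3 and its lowest was baicalin plus LPS 1. The means were 235 ± 48.7 and 196 ± 40.2 CPM (log2 fold change -0.26 ± 0.18, adjusted p = 0.617 in edgeR), and without LPS libraries 1, 2 and 3 the fold change was 0.01 ± 0.22. Adcy6 gave 50.4% to 66.6% and Adcy5 12.9% to 20.2% of the summed FPKM of the 10 cyclase genes. The ratio of Adcy6 to Adcy5 was 3.97 ± 0.455 in the LPS group and 3.54 ± 0.988 with baicalin (two-sided exact permutation p = 0.294, 0.310 adjusted over 4 ratios).

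Grk5 encodes a kinase that phosphorylates agonist-bound receptors. It had 44.3, 54.8, 44.4, 111 and 112 CPM in LPS libraries 1 to 5 and, in baicalin plus LPS libraries 1, 2, 3, 5 and 7, 107, 53.7, 62.9, 153 and 107 CPM. A low range up to 62.9 CPM held LPS libraries 1, 2 and 3 and baicalin plus LPS libraries 2 and 3, and the other 5 libraries had at least 107 CPM. The split thus ran within both groups. The means were 73.3 ± 35.2 and 96.6 ± 39.9 CPM (SD, n = 5 each), and the log2 fold change was 0.40 ± 0.36 (SE, adjusted p = 0.711 in edgeR). The value was -0.20 ± 0.36 once LPS libraries 1, 2 and 3 were left out and 0.74 ± 0.36 once the 2 atrial-transcript libraries were (adjusted p = 0.828 and 0.563 in edgeR). The same 5 libraries were the lowest for Lcn2, with at most 195 CPM against at least 306 CPM in the others. They were also the lowest for the acute-phase transcript Saa3. For Serpina3n, another one, they were not, since baicalin plus LPS library 3 lay above libraries 1 and 7 of its group. The part of the acute-phase state in the Grk5 levels was not tested. Grk5 spans part of Zfp950 on the opposite strand, but the 2 genes share no exon bases.

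**Figure D3:**
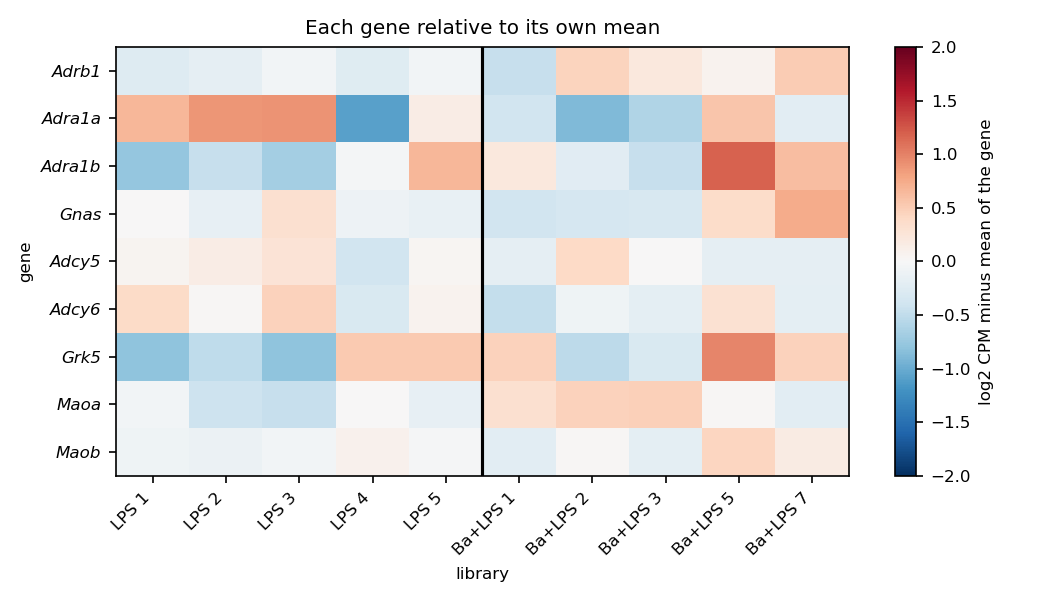
log2 CPM of each gene minus its mean over the 10 libraries (colour), with libraries on the horizontal axis, LPS left of the line, and the 9 genes on the vertical axis. Grk5 is low in LPS libraries 1, 2 and 3 and in baicalin plus LPS libraries 2 and 3, and Adra1a is high in LPS libraries 1, 2 and 3.

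Maoa encodes monoamine oxidase A, which prefers serotonin and noradrenaline. It had 4.62, 3.62, 3.48, 4.86 and 4.31 CPM in LPS libraries 1 to 5 and, in baicalin plus LPS libraries 1, 2, 3, 5 and 7, 6.01, 6.62, 6.69, 4.90 and 4.17 CPM. Of the baicalin plus LPS libraries, 4 lay above all LPS libraries, and library 7 lay inside their range. The means were 4.18 ± 0.604 and 5.68 ± 1.11 CPM (SD, n = 5 each), and the log2 fold change was 0.44 ± 0.17, 1.36-fold (SE, adjusted p = 0.376 in edgeR, unadjusted p = 0.0246). The fold change stayed positive under every alternative tried, from 0.27 to 0.60, with edgeR adjusted p values from 0.197 to 0.680 when 1 library was left out. Baicalin plus LPS libraries 1, 2 and 3, the 3 highest for Maoa, were also the 3 highest for the sum of the 5 macrophage markers, 230.0 to 342 CPM against 66.3 to 195 CPM, and of the 5 fibroblast markers, 656 to 1331 CPM against 424 to 643 CPM. This did not hold for every single marker. LPS library 4 lay above baicalin plus LPS library 1 for the macrophage markers Cd68 and Mrc1 and the fibroblast marker Pdgfra. For the fibroblast marker Dcn, LPS libraries 4 and 5 and baicalin plus LPS library 7 lay above baicalin plus LPS library 1. For the fibroblast marker Lum, LPS library 2 did. The part of these cells in the Maoa level was not tested. With the 2 atrial-transcript libraries left out, the log2 fold change of Maoa was 0.27 ± 0.18 (adjusted p = 0.679 in edgeR).

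Maob encodes monoamine oxidase B, which prefers phenylethylamine, and lies beside Maoa on the X chromosome, from 16709282 to 16817366 on the minus strand against 16619698 to 16687818 on the plus strand (GRCm38). It had 54.4, 53.4, 55.3, 61.1 and 56.6 CPM in LPS libraries 1 to 5 and, in baicalin plus LPS libraries 1, 2, 3, 5 and 7, 49.7, 58.6, 50.3, 77.5 and 64.7 CPM. It varied least of the 9 genes, 1.56-fold between the lowest and the highest library. The means were 56.2 ± 3.01 and 60.2 ± 11.5 CPM (SD, n = 5 each; log2 fold change 0.10 ± 0.13, adjusted p = 0.803 in edgeR). Per length, Maob was by far the more abundant oxidase transcript, with 17.3 to 24.6 FPKM against 0.728 to 1.81 FPKM for Maoa. The ratio of Maoa to Maob was 0.0568, 0.0454, 0.0421, 0.0532 and 0.0509 in LPS libraries 1 to 5, and 0.0809, 0.0756, 0.0890, 0.0423 and 0.0431 in libraries 1, 2, 3, 5 and 7 of the other group. Baicalin plus LPS libraries 1, 2 and 3 lay above all others, while libraries 5 and 7 lay at the low end (two-sided exact permutation p = 0.167, 0.310 adjusted over 4 ratios).

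**Figure D4:**
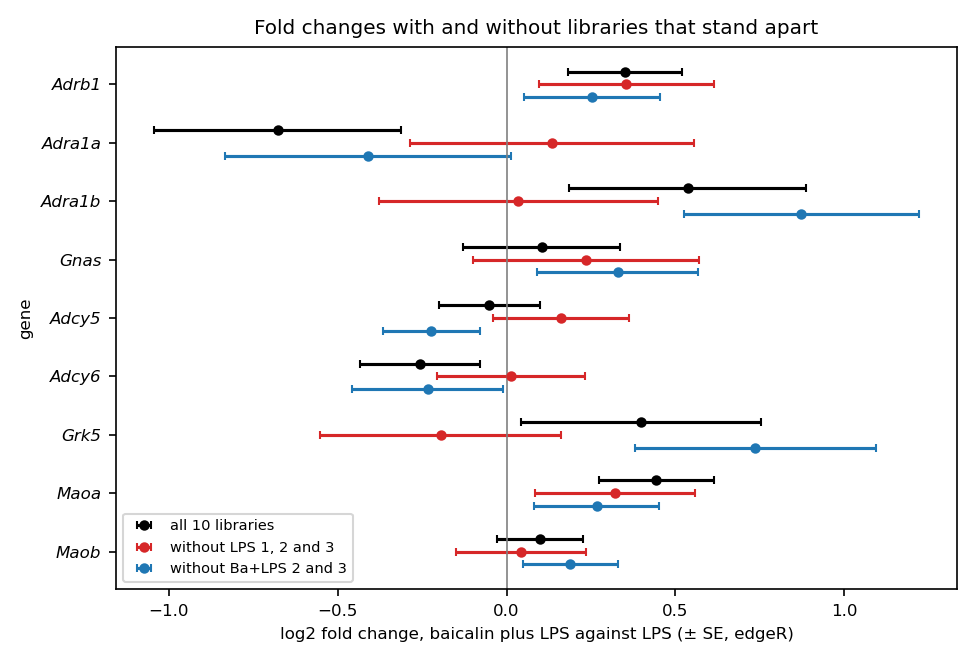
log2 fold change of baicalin plus LPS against LPS in edgeR (horizontal axis, bars ± SE) for the 9 genes (vertical axis) with all 10 libraries, without LPS libraries 1, 2 and 3, and without baicalin plus LPS libraries 2 and 3. Adra1a, Adcy5, Adcy6 and Grk5 change sign without LPS libraries 1, 2 and 3, and Maoa and Adrb1 stay positive in all 3 fits.

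By level per length in the LPS group, the order was Adcy6 (33.3 ± 4.46 FPKM), Maob (19.7 ± 3.11), Grk5 (10.5 ± 6.08), Adcy5 (8.38 ± 0.762), Adra1b (6.37 ± 3.46), Adra1a (2.11 ± 0.778), Adrb1 (2.06 ± 0.233), Maoa (0.987 ± 0.230) and Gnas (0.576 ± 0.0633), each as mean ± SD of 5 libraries. The last place of Gnas carries the doubt about its count given above. Grk5, Adcy5 and Adra1b overlapped within their SDs, as did Adra1a and Adrb1, so the order among them is not fixed by these libraries. With baicalin the order differed in part. Adra1b, with 9.20 ± 3.44 FPKM, was above Adcy5, with 8.75 ± 2.41 FPKM, and Adra1a, with 1.41 ± 0.433 FPKM, was below both Adrb1, with 2.80 ± 0.824 FPKM, and Maoa, with 1.42 ± 0.373 FPKM. Adra1b and Adcy5, and Adra1a and Maoa, overlapped within their SDs. Over the 10 libraries, Adra1a varied 3.97-fold, Adra1b 3.86-fold and Grk5 3.45-fold between the lowest and highest CPM. The other 6 genes varied between 1.56-fold (Maob) and 2.19-fold (Gnas).

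The 3 genes with log2 CPM profiles nearest to Adrb1 over the 10 libraries, among 7641 genes with a mean of at least 10 CPM, were Sobp, Gata4 and Plcl2. Their mean absolute distances from the Adrb1 profile were 0.10, 0.12 and 0.14 on the log2 scale, where Adrb1 itself deviated by 0.25 on average from its mean. Gata4, a transcription factor of cardiomyocytes, had 73.1 ± 7.54 and 92.6 ± 11.1 CPM. Nearest to Maoa were Rsu1, Dap and Hgsnat, at 0.11, 0.12 and 0.12, with a mean deviation of 0.26 for Maoa. Nearest to Maob were Dad1, Zadh2 and Ttc12, at 0.07 each, with a mean deviation of only 0.14 for Maob. A likeness over 10 libraries is a description, and these libraries differ in depth and in their marker sums.

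Other genes that make, carry or break down catecholamines were also described by their levels. Slc22a3, an organic cation transporter that takes up catecholamines outside neurons, had 4.01 ± 1.35 and 6.07 ± 1.40 CPM (0.60 ± 0.26, adjusted p = 0.424 in edgeR). Slc29a4, a plasma membrane monoamine transporter, had 0.330 ± 0.135 and 0.137 ± 0.116 CPM (-1.31 ± 0.53, adjusted p = 0.394 in edgeR). Its level was near the floor, with 2 to 28 counts in a library. Aldh2, the mitochondrial aldehyde dehydrogenase that clears aldehydes such as those left by the oxidases, had 247 ± 22.1 and 217 ± 54.3 CPM (-0.19 ± 0.17, adjusted p = 0.703 in edgeR).

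Transcripts of catecholamine synthesis were low in all libraries. Dbh, which turns dopamine into noradrenaline, had 0.139 to 3.28 CPM, Ddc, which makes dopamine, 0.695 to 2.04 CPM and Pnmt, which makes adrenaline, 0.115 to 1.08 CPM. The vesicular transporter Slc18a2 had 1.44 to 3.03 CPM. Of the 12 genes tested in this list of 14, the 2 oxidases included, 0 passed the adjusted threshold in edgeR. At an unadjusted p under 0.05, 2 were higher and 1 lower, beside 5.26% and 5.88% of all genes, and the median log2 fold change was -0.11. Rnls had 3.49 ± 1.07 and 2.62 ± 0.366 CPM (-0.41 ± 0.22), Akr1b3, an aldose reductase, 97.1 ± 24.0 and 80.4 ± 10.4 CPM (-0.27 ± 0.18), and Aldh3a2 25.8 ± 1.37 and 24.5 ± 3.19 CPM. Rnls and Akr1b3 were highest in LPS libraries 1, 2 and 3.

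In the wider pathway, 10 lists held 140 genes, of which 132 were tested, the 9 genes above among them. In edgeR 0 passed the adjusted threshold and 17 an unadjusted p under 0.05 (12.9%, beside 11.1% of all genes), 7 of them higher and 10 lower with baicalin. DESeq2 called 3, Adcy4, Plcb4 and Pde4c, beside 1.68% of all genes. The groups did not overlap in 3 genes, Adcy4, Plcb4 and Kcnq1 (2.27%, beside 2.46% of all genes). The median log2 fold change of the 132 genes was -0.05, with 56 positive and 76 negative values (49.4% and 50.6% of all genes).

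Adcy4 encodes an adenylyl cyclase. It had 29.7, 35.5, 31.7, 41.3 and 35.9 CPM in LPS libraries 1 to 5 and, in baicalin plus LPS libraries 1, 2, 3, 5 and 7, 27.5, 25.6, 25.8, 24.0 and 29.3 CPM. Every baicalin plus LPS library lay below every LPS library (34.8 ± 4.47 and 26.5 ± 2.01 CPM, SD, n = 5 each; log2 fold change -0.40 ± 0.11, adjusted p = 0.299 in edgeR, DESeq2 adjusted p = 0.0464). Of the 5 endothelial markers, 4 also had negative fold changes and their sums overlapped, 539 to 807 CPM in the LPS group and 445 to 702 CPM with baicalin, and their part in the Adcy4 level was not tested. Of the 9 cyclase genes tested, 5 had positive and 4 negative fold changes (49.4% and 50.6% of all genes). Adcy8, Adcy1 and Adcy7 had standard errors nearly as large as their fold changes (-0.67 ± 0.57, 0.75 ± 0.67 and 0.33 ± 0.32).

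Below the alpha-1 receptors, 10 of 12 effector genes tested had negative fold changes (50.6% of all genes), 3 of them at an unadjusted p under 0.05 (5.88% of all genes). Plcb4, a phospholipase C of the Gq pathway, had 103, 114, 105, 105 and 103 CPM in LPS libraries 1 to 5 and, in baicalin plus LPS libraries 1, 2, 3, 5 and 7, 94.5, 80.1, 92.2, 87.7 and 81.6 CPM. The groups did not overlap (106 ± 4.70 and 87.2 ± 6.32 CPM, SD, n = 5 each; log2 fold change -0.28 ± 0.09, adjusted p = 0.301 in edgeR, DESeq2 adjusted p = 0.0388). Prkce, a protein kinase C, had -0.38 ± 0.15, Itpr2, an inositol trisphosphate receptor, -0.29 ± 0.11 and Prkd1 -0.52 ± 0.25 (adjusted p = 0.373, 0.376 and 0.472 in edgeR). Prkd1 was highest in LPS libraries 1, 2 and 3. The list median was -0.06, beside -0.00 over all genes, and 0 of its genes passed in edgeR.

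The phosphodiesterases, which break down cAMP, had 8 negative and 6 positive fold changes among 14 genes (50.6% and 49.4% of all genes). Pde4c had 13.4, 12.5, 14.9, 5.23 and 5.25 CPM in LPS libraries 1 to 5 and, in baicalin plus LPS libraries 1, 2, 3, 5 and 7, 3.89, 4.99, 4.09, 6.10 and 4.51 CPM. Only LPS libraries 1, 2 and 3 were high, and LPS libraries 4 and 5 lay inside the range of the baicalin plus LPS libraries (log2 fold change -1.12 ± 0.31, adjusted p = 0.299 in edgeR, DESeq2 adjusted p = 0.0364). Pde7a had 82.8 ± 46.1 and 43.9 ± 5.51 CPM (-0.92 ± 0.39) with the same 3 libraries highest. Pde3b, which cGMP inhibits, had 5.87 ± 1.25 and 7.82 ± 1.20 CPM (0.41 ± 0.18), and Pde4a 55.0 ± 11.0 and 68.5 ± 5.81 CPM (0.32 ± 0.14), with edgeR adjusted p values of 0.425 and 0.449.

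Of the protein kinase A genes and their partners, 7 had positive and 12 negative fold changes (49.4% and 50.6% of all genes). Prkar1a, a regulatory subunit, had 443 ± 81.6 and 561 ± 78.0 CPM (0.34 ± 0.15, adjusted p = 0.439 in edgeR). Popdc2, a cAMP-binding membrane protein of the heart, had 285 ± 57.9 and 359 ± 16.1 CPM (0.33 ± 0.14, adjusted p = 0.413 in edgeR), and the anchor gene Akap13 137 ± 44.3 and 107 ± 8.46 CPM (-0.36 ± 0.18). Prkar1a and Popdc2 were lowest in LPS libraries 1, 2 and 3, while LPS libraries 4 and 5 had 357 and 337 CPM of Popdc2, beside 336 to 374 CPM with baicalin. Rapgef3, which encodes the cAMP sensor EPAC1, had 26.7 ± 8.15 and 17.6 ± 2.78 CPM (-0.60 ± 0.19, adjusted p = 0.303 in edgeR). LPS library 4 was the highest for both Akap13 and Rapgef3. Akap13 had 213 CPM there, 105 to 138 CPM in the other LPS libraries and 94.9 to 118 CPM with baicalin. Rapgef3 had 41.1 CPM there, 21.1 to 24.7 CPM in the other LPS libraries and 14.3 to 21.8 CPM with baicalin.

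Of 14 cardiac targets of protein kinase A, 10 had fold changes below 0 (50.6% of all genes), and the median was -0.12. Kcnq1, the pore of a repolarizing potassium channel, was the gene without overlap, at up to 26.0 CPM in the LPS libraries and at least 26.2 CPM with baicalin (24.7 ± 1.78 and 29.5 ± 1.97 CPM, SD, n = 5 each; log2 fold change 0.26 ± 0.09, adjusted p = 0.326 in edgeR). The gap between its nearest libraries was small against the spread within either group. Camk2d, a calcium-dependent kinase, had -0.18 ± 0.10, Atp2a2, the calcium pump of the sarcoplasmic reticulum, -0.33 ± 0.18 and the calcium channel subunit gene Cacnb2 0.24 ± 0.15. Camk2d and Atp2a2 were highest in LPS libraries 1, 2 and 3.

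Among G protein genes, 14 of 20 tested had fold changes above 0 (49.4% of all genes), and the median was 0.10. Gng2 had 4.19 ± 1.00 and 8.62 ± 5.72 CPM (1.04 ± 0.42, adjusted p = 0.394 in edgeR). The atrial-transcript libraries had the highest Gng2 levels, 16.7 and 11.9 CPM, while baicalin plus LPS libraries 5 and 7 had 4.03 and 2.92 CPM, beside 3.16 to 5.65 CPM in the LPS group. The Gq genes Gnaq and Gna11 had 0.15 ± 0.08 and -0.16 ± 0.09, while Gna12 had -0.22 ± 0.12. Of 13 receptor kinases, arrestins and regulators of G protein signalling (RGS), 8 had positive fold changes (49.4% of all genes). Rgs4, which shortens Gq and Gi signals, had 9.54 ± 3.49 and 5.46 ± 1.14 CPM (-0.80 ± 0.26, adjusted p = 0.321 in edgeR), with 11.0 to 12.8 CPM in LPS libraries 1, 2 and 3 and 3.59 to 6.56 CPM in the other 7. Arrb2, a beta-arrestin, had 0.56 ± 0.35, Rgs10 0.63 ± 0.45 and Rgs14 0.68 ± 0.50. Of 14 genes of cAMP-responsive transcription, 12 had fold changes below 0 (50.6% of all genes), and the median was -0.19. At an unadjusted p under 0.05 in edgeR 0 of them passed, beside 11.1% of all genes. They included Crem (-0.36 ± 0.19), Dusp1 (-0.31 ± 0.18) and the coactivator gene Ppargc1a (-0.86 ± 0.48), while Nr4a2 had 0.50 ± 0.28. Ppargc1a was highest in LPS libraries 1, 2 and 3.

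**Figure D5:**
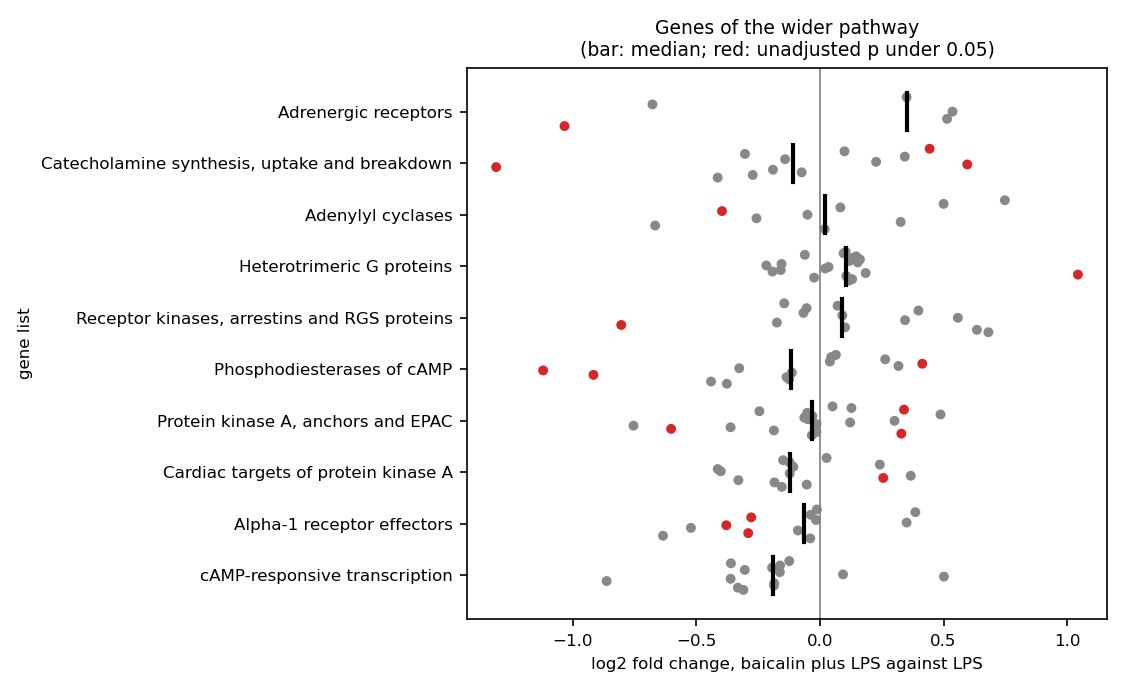
log2 fold change of baicalin plus LPS against LPS (horizontal axis) for each tested gene of 10 pathway lists (vertical axis); points are genes, red at an unadjusted p under 0.05, and bars are list medians. The medians lie between -0.19 (cAMP-responsive transcription) and 0.35 (adrenergic receptors), and 17 of 132 points are red. The receptor list has only 5 tested genes, from -1.03 (Adra2b) to 0.54 (Adra1b), and its median is the value of Adrb1.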

How the data were processed

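RNA was extracted from heart tissue with TRIzol, and libraries were made with an ABclonal mRNA-seq kit, per the labels' protocols. The submitters' processing notes name mm10 as the build. Which aligner and counting program the authors ran, and whether strand was used, is not given. The authors deposited whole-number counts per Ensembl gene. They also deposited FPKM, which could be recomputed from these counts with a fixed length for each gene. All columns were mapped to labelled libraries, 5 per group.

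Raw counts were tested with edgeR 4.0.16 (R 4.3.3, quasi-likelihood F test, robust fit, TMM factors, filter by group), which kept 16850 genes, with Benjamini-Hochberg adjustment over all of them and a threshold of 0.05. Levels are CPM scaled by TMM. Ratios of FPKM used an exact permutation test over 252 assignments. DESeq2 1.42.0, limma 3.58.1 (voom, and log2(FPKM + 1) and log2(FPKM + 0.1)), other factors, filters and libraries left out were alternatives. The fit was tested on simulated data. Symbols and positions are those of GENCODE M21 (GRCm38), and sequences those of RefSeq (GRCm38.p6).

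The members and the gene lists were chosen with earlier results of these data known. Of each pathway list, up to 4 tested genes of smallest p beside the members are named. Receptor and most catecholamine genes are given by level, some genes are not reported here, Th was not analysed here, and Popdc1 was matched as Bves. Adcy4, Plcb4 and Pde4c are given by library because DESeq2 called them. Tagln, Cidea and Adipoq are named after their values were seen. In a library, 61.6% to 64.7% of counts from 1 to 50 were even, and the reason was not tested.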

Additional observations from a re-analysis of the deposited data

Results flagged for a closer look

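In 82 groups of 5 values, 8 had a library whose gap to the nearest other library exceeded Dixon's 95% critical value, and chance gives about 1 in 20. Adcy5 had 80.1 CPM in baicalin plus LPS library 2 and 53.5 to 60.9 CPM in the other 4 libraries of that group. Pnmt had 1.08 CPM in LPS library 4 and 0.115 to 0.294 CPM in the others. Adrb3 had 0.0986 CPM in baicalin plus LPS library 3 and at most 0.0252 CPM in the others of the group, and Adra2a had 0.177 CPM in library 1 and at most 0.0658 CPM in the others, both levels of a few counts. The summed markers of atrial muscle were 1147 CPM in baicalin plus LPS library 2 and 60.8 to 331 CPM in the others. LPS library 4 was the highest of its group for the summed neutrophil markers (151 CPM, others 1.61 to 35.2) and the summed chromaffin markers (1.65 CPM, others 0.421 to 0.733), and the lowest for the summed Schwann cell markers (3.83 CPM, others 5.62 to 6.20). Pnmt is on the chromaffin list, so these flags share a gene.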

How the results depend on the processing

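Over all genes, edgeR called 0 at the adjusted threshold under every scaling and with each library left out, against 2 with no filter on low counts, 267 in DESeq2 and 2974 in limma-voom with sample quality weights. The last gave 5652 genes at an unadjusted p under 0.05 and called 5 of the 9 members. Leaving out 1 library gave 1282 to 3112 genes at that unadjusted p, the highest without LPS library 4, against 1878 with all. Of the refitted fold changes of members, 207 kept sign and side of the threshold, 5 became called and 13 changed sign. Adcy5 turned to 0.0625 with library totals, 0.0278 on log2(FPKM + 1), 0.0279 on log2(FPKM + 0.1) and 0.16 without LPS libraries 1, 2 and 3, and ranged from -0.17 to 0.0201 when 1 library was left out. In that setting Maob ranged from -0.00879 to 0.16 and Gnas from -0.12 to 0.20. Gnas was -0.0563 with quality weights. Without LPS libraries 1, 2 and 3, Adra1a turned to 0.14, Adcy6 to 0.0121, Grk5 to -0.20 and the log2 ratio of Adra1a to Adra1b to 0.22. Leaving these libraries out selects on Lcn2 and keeps only 2 LPS libraries. The cause of the other turns was not tested.

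Numbers 1, 2, 3 and 5 occur in both groups, and no label says that they pair libraries, so the main fit did not pair them. Deviations of same-numbered libraries from their group means had correlations of -0.10, 0.08, -0.04 and 0.05. These correlations cannot decide whether same-numbered libraries were handled together, since other differences within the groups enter them too. With the replicate block, 2565 of 16953 genes tested had an unadjusted p under 0.05, against 3113 of 16953 for the same libraries without it. Members among them numbered 4 and 2 of the 9, and Gnas was -0.16 and -0.14. The block called 0 genes at the adjusted threshold. With 4 pairs, the paired exact test of the ratios cannot go below 0.125.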

Other observations

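Tagln, a smooth muscle marker, had only 0.0834 to 0.324 CPM in the 10 libraries, while Acta2, another smooth muscle marker, had 81.8 to 310.2 CPM. Of the annotated exon bases of Tagln, 67.9% are shared with counted genes on the opposite strand, Pcsk7 among them. Gnas, at 5.23 to 11.4 CPM, shares 21.96% of all its exon bases with counted genes on the opposite strand, and the 8 other members share 0%. For single annotated Gnas transcripts, the share covered by Gm20721 runs from 0% (Gnas-204) to 85.4% (Gnas-208). Whether the counting step left out reads in shared bases was not tested.

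Cidea, which is on the fat list, had 19.2 to 80.1 CPM, although Ucp1, the defining gene of brown fat, had at most 0.324 CPM. Cidea had 20.8, 21.8 and 19.2 CPM in LPS libraries 1, 2 and 3 and 25.0 to 80.1 CPM in the other 7. Adipoq reached 2.26 and 3.07 CPM in the 2 libraries with atrial transcripts, baicalin plus LPS 2 and 3, and at most 0.403 CPM in the other 8.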
